A study of Mus musculus with 13 samples.

Results

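Microglia from mice that received LPS at both of 2 injections, without microglia depletion, were set against resting microglia from mice that received PBS at both. The comparison used 4 of the 13 ATAC-seq libraries of the series, the pools LL 1_2 and LL 3_4 against PP 1_2 and PP 3_4. It was restricted to the autosomes, which held 37820 of the 38620 peaks of the common peak set, and 36769 of these passed the filter on low counts and were tested. LL mice were male C57BL/6J animals given 1 mg/kg LPS from Escherichia coli intraperitoneally at 10 weeks of age and again 5 weeks later. PP mice were of the same strain, sex and age and had PBS at both times. All of them had been gavaged for 5 days with vehicle (2-hydroxypropyl-beta-cyclodextrin), from a week after the first injection, and brains were taken 3 hours after the last injection, at 15 weeks. Each library pooled 40000 sorted microglia from each of 2 mice, so a replicate is a pool and not an animal. Of the other groups, PL had PBS and then LPS with vehicle, while LBL and PBP were treated like LL and PP except that BLZ945 at 169 mg/kg per day replaced the vehicle. BLZ945 inhibits CSF1R, on which microglia depend for survival, so LBL and PBP cells come from a brain that was depleted and then repopulated.

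Microglia are the resident macrophages of the brain. LPS, a component of the outer membrane of gram-negative bacteria, is sensed by Toll-like receptor 4, which acts through NF-kB, MAP kinases and interferon regulatory factors; an injection into the abdomen also raises circulating cytokines and glucocorticoids that reach the brain. Macrophages that have met LPS can answer a later dose more weakly or more strongly, which is called innate immune memory and has been tied to lasting changes at enhancers. ATAC-seq reads out open chromatin, where promoters and enhancers lie, because a transposase inserts adapters where DNA is not packed in nucleosomes.

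Promoter letters were read for the called promoter peaks that overlapped a RefSeq promoter window, which runs from 250 bases before to 50 bases after a start site, by at least 150 bases (build GRCm38.p6). This covered 7873 of the 13433 tested promoter peaks (58.6%), among them 91 of the peaks that were higher in LL and 278 of those that were lower. The AP-1 letters TGANTCA stood in 11 of the 91 windows of higher peaks (12.1%) and in 5 of the 278 windows of lower peaks (1.8%), against 4.28% of all tested promoter windows and 7.85% of all 31365 windows. The glucocorticoid receptor letters, GNACA and TGTNC with 3 bases between them, stood in 2 windows of higher peaks (2.2%) and in 0 of lower peaks, against 0.254% of the tested and 0.488% of all windows. The PU.1 letters GAGGAAG stood in 22% of the windows of higher peaks and 11.9% of those of lower peaks, against 13.8% of the tested and 13.4% of all windows. The IRF letters, GAAA repeated after 2 bases, stood in 7.69% and 2.16%, against 2.96% and 3.45%. The NF-kB letters, GGG and TTCC with 3 bases between them, stood in 6.59% and 7.19%, against 6.8% and 5.61%. The C/EBP letters TTGCNNAA stood in 8.79% and 6.12%, against 7.8% and 10.9%. The MEF2 letters, CTA and TAG with 4 bases between them, stood in 2.2% and 2.88%, against 2.65% and 3.73%. The CTCF letters, CCA, AG and GGC with 2 bases between each, stood in 2.2% and 3.6%, against 3.24% and 2.47%. Both strands were searched, no test was made of these shares, and a match is a description of the letters. Shown as examples are 4 higher promoters with the AP-1 letters before the start site and 1 with the glucocorticoid receptor letters there. Shown with them are 2 lower promoters. The 4 had the smallest p among the higher windows considered that hold the AP-1 letters before the start site. They are not the leading higher promoters by p. The 2 had the smallest p among the lower windows considered, whatever their letters. The windows considered did not cover every called promoter. The promoter with the clearest gain, described below, is not shown. Zyx, Sema6b and Mt1 (log2 fold change 0.655, 0.697 and 0.713) lay under the median of all higher promoters (0.822). The printed promoters were chosen after their values were seen. Only windows of the gene that names the peak were used. Each line gives the 250 bases before the start site, 5′ to 3′ on the gene's strand, with matches to the searched letters in capitals.
Cd244a (chr1:171558943-171559192, + strand): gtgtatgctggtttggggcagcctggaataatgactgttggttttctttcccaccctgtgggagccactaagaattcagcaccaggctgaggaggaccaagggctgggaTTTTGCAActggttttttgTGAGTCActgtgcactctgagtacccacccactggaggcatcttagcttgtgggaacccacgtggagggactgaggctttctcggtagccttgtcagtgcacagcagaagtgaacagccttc
Rcan1 (chr16:92400079-92400328, - strand): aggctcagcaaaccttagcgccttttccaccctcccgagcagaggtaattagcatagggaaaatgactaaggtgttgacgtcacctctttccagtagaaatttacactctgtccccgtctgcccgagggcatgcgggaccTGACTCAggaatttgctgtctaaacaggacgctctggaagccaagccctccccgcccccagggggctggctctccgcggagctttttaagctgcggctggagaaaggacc
Zyx (chr6:42349578-42349827, + strand): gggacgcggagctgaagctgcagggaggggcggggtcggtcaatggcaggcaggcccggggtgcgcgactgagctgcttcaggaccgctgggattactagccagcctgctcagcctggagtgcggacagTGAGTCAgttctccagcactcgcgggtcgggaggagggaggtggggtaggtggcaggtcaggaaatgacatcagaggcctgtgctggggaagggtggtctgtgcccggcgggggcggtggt
Sema6b (chr17:56133853-56134102, - strand): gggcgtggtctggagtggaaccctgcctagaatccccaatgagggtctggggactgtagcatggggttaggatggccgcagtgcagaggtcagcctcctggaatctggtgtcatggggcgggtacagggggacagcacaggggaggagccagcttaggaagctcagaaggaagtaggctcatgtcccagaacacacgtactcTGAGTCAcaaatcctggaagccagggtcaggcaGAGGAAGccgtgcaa
Mt1 (chr8:94178839-94179088, + strand): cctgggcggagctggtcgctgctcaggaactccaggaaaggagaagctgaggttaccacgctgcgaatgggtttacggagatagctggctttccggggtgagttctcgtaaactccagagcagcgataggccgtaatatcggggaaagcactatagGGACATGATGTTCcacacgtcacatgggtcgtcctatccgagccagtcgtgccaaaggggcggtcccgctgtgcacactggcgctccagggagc
4931408C20Rik (chr1:26687461-26687710, - strand): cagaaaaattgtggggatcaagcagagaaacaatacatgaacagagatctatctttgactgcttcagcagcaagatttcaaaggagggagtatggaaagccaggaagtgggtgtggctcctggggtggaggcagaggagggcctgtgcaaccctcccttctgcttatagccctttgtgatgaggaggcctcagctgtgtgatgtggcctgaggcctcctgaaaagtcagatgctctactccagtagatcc
Peli3 (chr19:4943093-4943342, - strand): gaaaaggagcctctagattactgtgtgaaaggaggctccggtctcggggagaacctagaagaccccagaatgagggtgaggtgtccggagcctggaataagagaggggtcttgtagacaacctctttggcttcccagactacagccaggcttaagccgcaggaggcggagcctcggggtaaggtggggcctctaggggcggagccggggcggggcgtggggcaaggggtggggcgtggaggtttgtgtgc

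In Cd244a, Rcan1, Zyx and Sema6b the capitals include TGANTCA, at bases 129 to 135, 141 to 147, 130 to 136 and 203 to 209 counted from the first base shown. Cd244a also holds the C/EBP letters and Sema6b the PU.1 letters, and both lower promoters hold none of the letters searched. The higher promoters were picked for their letters and the lower ones were not, so the printed sets cannot be compared in this respect. In Mt1 the capitals mark the glucocorticoid receptor letters at bases 157 to 169, which end 82 bases before the start site. Cd244a encodes a SLAM family receptor of immune cells, and its promoter peak had 46.4 and 51.5 CPM (the count scaled to library size) in the LL libraries, against 24.2 and 16.0 CPM in the PP libraries (log2 fold change 1.30 ± 0.247 SE, adjusted p = 8.59e-05). The Rcan1 peak, at the promoter of an inhibitor of the phosphatase calcineurin, had 68.9 and 67.6 CPM in LL and 33.7 and 31.9 CPM in PP. The promoter peak of Zyx, which encodes the focal adhesion protein zyxin, had 119 and 128 CPM in LL and 74.7 and 81.8 CPM in PP. At Mt1, a metallothionein that glucocorticoids and metals induce, the levels were 98.8 and 92.9 CPM in LL and 54.7 and 61.9 CPM in PP (log2 0.71 ± 0.164 SE, adjusted p = 0.00182). Peli3, which encodes a ubiquitin ligase of Toll-like receptor signalling, went the other way, with 20.0 and 26.2 CPM in LL and 65.2 and 49.9 CPM in PP (log2 -1.30 ± 0.223 SE, adjusted p = 1.05e-05). In all of these, as in every called peak, the LL libraries lay on one side of both PP libraries.

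LL libraries held 2013926 and 2494980 rounded counts in peaks, and PP libraries 927840 and 990266. LL cells were sorted on an XDP instrument on a day that no other group shared, and PP cells on an Astrios instrument on a day shared with PL 3_4, so sorter, day and treatment cannot be told apart and no within-batch value can be had. Promoter peaks took 56.1% and 55.5% of the counts in LL and 59% and 59.5% in PP. On the first principal component of all 13 libraries (27.8% of the variance) the LL pair lay at 19.1 and 19.4 and the PP pair at -57.6 and -54. If each deposited unit is 1 event, counting noise alone covers the difference within the PP pair (chi-square per degree of freedom 1.01, p = 0.0716 over 27911 peaks) and within the LBL pair, but not that within the LL pair (1.03, p = 8.63e-05). Since the deposited values come in steps of 0.5, the true counting noise is not known. Both PP libraries were kept, and counts with the pair entered as 1 library are given beside the main ones. That 1 library was the rounded mean of the pair and not its sum, so depth was lost along with a replicate.

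Of the 36769 autosomal peaks tested, 1524 were more accessible in LL than in PP (4.14%) and 727 were less accessible (1.98%), at an adjusted p under 0.05 by edgeR's quasi-likelihood F test. The change was at least 2-fold at 830 of the higher and 334 of the lower peaks, and 39 higher and 48 lower peaks passed 4-fold. The median log2 fold change was 1.04 among higher peaks, -0.95 among lower peaks and 0.0072 over all peaks tested. In all 2251 called peaks (6.12%) the libraries of the groups did not overlap, which also held for 48.6% of the peaks that were not called. Peaks higher in LL had a median of 37.8 CPM in LL and 18 CPM in PP, and peaks lower in LL a median of 17.9 CPM in LL and 34.8 CPM in PP. Each pool is a bulk sample, so that fewer cells with an open site and less opening per cell cannot be told apart. The counts leaned on every library: leaving out LL 1_2 gave 884 higher and 405 lower peaks, LL 3_4 gave 692 and 243, PP 1_2 gave 441 and 176, and PP 3_4 gave 446 and 241, in fits that assume the lone library to vary like the other groups. With the PP pair and the LBL pair each entered as 1 library, 214 higher and 67 lower peaks were called.

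**Figure D1:**
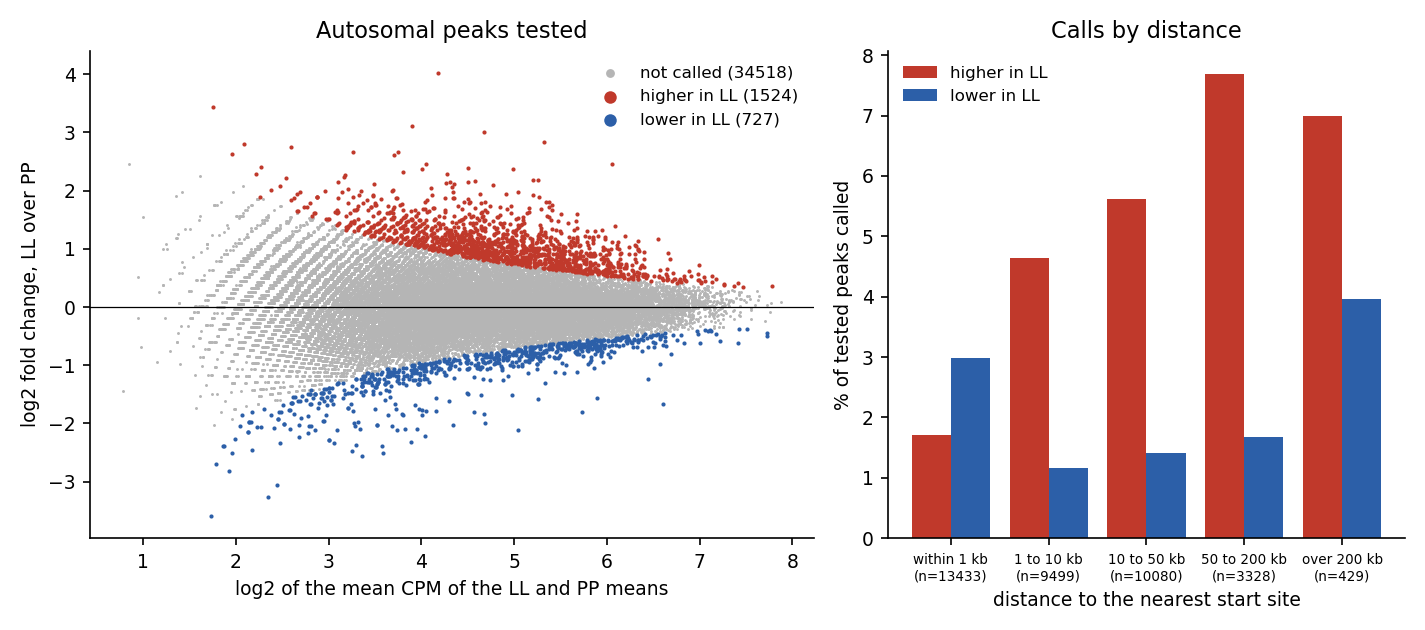
Left, log2 fold change of LL over PP (vertical axis) against the log2 mean CPM (horizontal axis) of the 36769 autosomal peaks tested, coloured by call; right, percent of tested peaks called in each direction by distance to the nearest start site. Higher peaks make up 1.71% of peaks within 1 kb and 7.69% of those at 50 to 200 kb, and lower peaks 2.99% and 1.68%.

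Gains and losses lay in different places. Introns held 676 of the higher peaks (44.4%) and intergenic sites 492 (32.3%), while promoters held 230 (15.1%). Among lower peaks promoters held 402 (55.3%), intergenic sites 164 (22.6%) and introns 115 (15.8%). Promoters made up 36.5% of all peaks tested, introns 31.5% and intergenic sites 24.4%. The share of peaks called higher was 1.71% within 1 kb of a start site, 4.64% at 1 to 10 kb, 5.62% at 10 to 50 kb, 7.69% at 50 to 200 kb and 6.99% beyond 200 kb. Lower calls made up 2.99%, 1.16%, 1.41%, 1.68% and 3.96% of the same bins, the last of which holds 429 peaks. The median log2 fold change over all tested promoters was -0.08 and over all other tested peaks 0.09, so a small tilt between the classes ran through the uncalled peaks as well. The promoter share of the lower calls depended on their size: it was 21% among lower peaks changed more than 2-fold, and 22.4% when the PP and LBL pairs were each entered as 1 library. Lower calls were also uneven between chromosomes: chromosome 11 had 128 lower calls among 2557 tested peaks (5.01%) and a median log2 fold change of -0.20 over all its tested peaks, while in LBL against PBP the same peaks had a median of -0.06 and 30 lower calls (1.17%). Chromosome 11 also had the largest promoter share of its tested peaks (44.9%). Chromosome 19, with 43.8%, had 3.42% lower calls, and chromosome 7, with 43.5%, had 1.83%. The lower peaks of Pisd-ps1 and Sfi1, genes with near-identical copies, lie on chromosome 11. The part of peak class and of copies in this unevenness was not tested.

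The clearest gain was at the promoter of Map3k8, the kinase Tpl2, which couples Toll-like receptors to the ERK pathway, at chr18:4336162-4336932. It had 116 and 109 CPM in LL and 21.0 and 20.0 CPM in PP, so both LL libraries lay far above both PP libraries (log2 2.45 ± 0.200 SE, adjusted p = 4.19e-20). All 4 peaks within 50 kb of a Map3k8 start site were higher in LL, and their sum was 340 and 336 CPM in LL and 109 and 111 CPM in PP (log2 1.62 ± 0.118 SE, adjusted p = 4.48e-18). The next peak by p, chr16:93246704-93247456, is intergenic and more than 50 kb from any start site, with 74.4 and 66.0 CPM in LL and 10.5 and 8.98 CPM in PP (log2 2.84 ± 0.270 SE, adjusted p = 4.64e-16). Peaks were named after the nearest start site, which does not show that they act on that gene.

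Some of the 15 leading gains lay at genes of transcription factors. Zbtb16 encodes PLZF, a zinc finger repressor that glucocorticoids induce, and 2 peaks deep in its introns were nearly closed at rest. At chr9:48744940-48745377 the LL libraries had 31.9 and 36.2 CPM and the PP libraries 2.1 and 2.00 CPM (log2 4.02 ± 0.459 SE, adjusted p = 1.32e-11), and at chr9:48723398-48723981 the LL libraries had 46.4 and 44.7 CPM and the PP libraries 5.26 and 5.99 CPM (log2 3.00 ± 0.341 SE). The first of these had the largest fold change of all called autosomal peaks. Upstream of Rbpj, the nuclear effector of Notch signalling, the peak chr5:53454623-53455211 had 61.9 and 63.6 CPM in LL and 14.7 and 13.0 CPM in PP (log2 2.18 ± 0.259 SE, adjusted p = 7.53e-11). A distal peak nearest Klf7, a Krueppel-like factor, had 58.9 and 62.8 CPM in LL and 18.9 and 14.0 CPM in PP.

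Among secreted factors, the peak 13257 bases upstream of Il12a, which encodes the p35 subunit of the cytokine IL-12, had 57.9 and 49.1 CPM in LL and 6.31 and 14.0 CPM in PP (log2 2.37 ± 0.289 SE, adjusted p = 1.92e-10). The PP libraries differed from each other by more than 2-fold there, yet both lay far below LL. A distal peak nearest Hgf, the hepatocyte growth factor gene, had 130 CPM in each LL library and 45.2 and 69.9 CPM in PP (log2 1.16 ± 0.160 SE). Named gains at genes of membrane traffic and the cytoskeleton were an intron peak of Tbc1d14, a regulator of autophagosome formation, with 66.4 and 62.4 CPM in LL and 18.9 and 18 CPM in PP, and an intron peak of Myo1e, a class I myosin, with 53.9 and 62.8 CPM in LL and 16.8 and 14.0 CPM in PP. The rest of the 15 leading gains, at Ildr1, Oxr1, A630001O12Rik, an intron site on chromosome 13 and an intergenic site on chromosome 19, had log2 fold changes between 1.39 and 2.18.

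**Figure D2:**
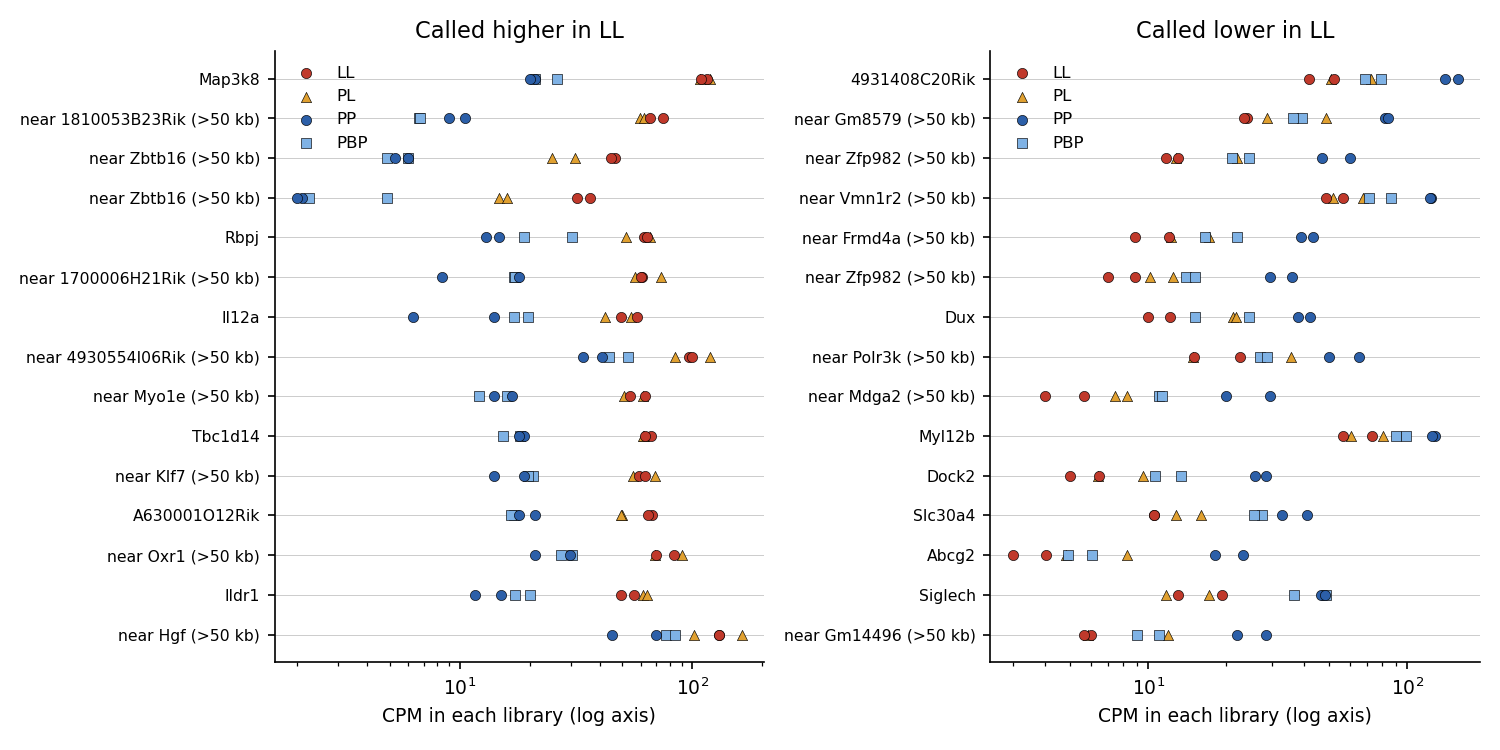
CPM on a log axis in each LL, PL, PP and PBP library at the 15 peaks with the smallest p called higher (left) and lower (right) in LL against PP, 1 row per peak. LL and PP points do not overlap in any row, which the choice of peaks required. At most lower peaks the PBP points lie between LL and PP, while at Siglech they lie with PP.

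Some gains from near 0 stood beside those of Zbtb16, at peaks whose PP mean was under 5 CPM. An intron peak of Larp4b, an RNA-binding protein gene, had 23.5 and 30.2 CPM in LL and 4.21 and 2.00 CPM in PP (log2 3.11 ± 0.449 SE, adjusted p = 9.9e-08). The peak chr19:23056854-23057272, whose nearest start site is that of the glucocorticoid-induced factor Klf9, had 25.5 and 20.9 CPM in LL and 4.21 and 2.99 CPM in PP (log2 2.66 ± 0.436 SE). At Srgn, the gene of the granule proteoglycan serglycin, the levels were 24.0 and 22.5 CPM in LL and 5.26 and 3.99 CPM in PP (log2 2.31 ± 0.411 SE). In each of them both LL libraries were above 20 CPM and no PP library exceeded 6 CPM.

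Several genes had many peaks called higher, and those with the most are given here. Over all tested peaks 4.14% were called higher. Within 50 kb of a start site, Rbm47, an RNA-binding cofactor of mRNA editing, had 8 of 18 tested peaks higher in LL, all of them in introns. Rbpj had 7 of 17, and Gcnt2, a glycosyltransferase that branches surface glycans, had 6 of 12. Pik3cb, a catalytic subunit of PI3-kinase, had 5 of 9, and Bcl3, an atypical IkB protein that binds p50 and p52, had 5 of 7. None of these 5 genes had a peak called lower. The strongest of the Gcnt2 peaks, in an intron at chr13:40971289-40971599, had 24.0 and 20.9 CPM in LL and 5.26 and 2.00 CPM in PP, and the Gcnt2 promoter had 35.9 and 37.0 CPM in LL and 18.9 and 16.0 CPM in PP (log2 1.07 ± 0.271 SE, adjusted p = 0.00593). At Bcl3 the leading peak, in an intron at chr7:19817336-19818033, had 77.9 and 70.0 CPM in LL and 27.3 and 29.9 CPM in PP (log2 1.36 ± 0.204 SE, adjusted p = 3.22e-07). It was also called in LBL against PBP (log2 1.53, adjusted p = 4.44e-10). Not all gains of these genes were: the Rbm47 peak chr5:66074967-66075520 had means of 68.5 CPM in LL, 36.1 CPM in PP, 66.5 CPM in LBL and 61.3 CPM in PBP (LBL over PBP log2 0.14, adjusted p = 0.747). The Rbpj promoter peak over the start site, chr5:53589981-53590769, was not called, with 79.4 and 85.3 CPM in LL and 84.1 and 77.8 CPM in PP (log2 0.03 ± 0.152 SE). The promoter peak next to it, chr5:53588896-53589557, was higher, with 61.9 and 63.6 CPM in LL and 37.9 and 38.9 CPM in PP (log2 0.71 ± 0.198 SE, adjusted p = 0.0145). The Pik3cb promoter was not called, with 69.4 and 57.9 CPM in LL and 66.3 and 65.9 CPM in PP. In all, 907 of 13358 genes had at least 1 higher peak, 626 at least 1 lower peak and 18 both.

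The losses were led by the promoter of 4931408C20Rik, with 51.9 and 41.8 CPM in LL and 156 and 140 CPM in PP (log2 -1.67 ± 0.158 SE, adjusted p = 4.44e-16). Behind it came an exon peak at chr6:3182420-3183998, with 24.0 and 23.3 CPM in LL and 82.0 and 83.8 CPM in PP, and an intergenic peak at chr4:147342983-147343938, with 13.0 and 11.7 CPM in LL and 60 and 46.9 CPM in PP. Losses at named immune and transport genes included an intron peak of Dock2, a Rac activator needed for leukocyte migration, with 4.99 and 6.44 CPM in LL and 28.4 and 25.9 CPM in PP (log2 -2.22 ± 0.337 SE, adjusted p = 4.57e-07). An intron peak of Abcg2, a drug efflux transporter, had 2.99 and 4.02 CPM in LL and 23.1 and 18 CPM in PP (log2 -2.50 ± 0.397 SE), and a peak in a Slc30a4 untranslated region, at a zinc transporter gene, had 10.5 CPM in each LL library and 41.0 and 32.9 CPM in PP. The genes with the most lower peaks were Pisd-ps1 (5 of 6 tested), Sfi1 (4 of 7), Dux (3 of 3), Gm21190 (3 of 3) and Siglech (2 of 4). Dux, the double-homeobox factor of the early embryo, lies in a tandem array, and Sfi1, Pisd-ps1 and Gm21190 have near-identical copies, so how reads were shared among copies in the deposited counts is uncertain there. Whether other leading losses, the 4931408C20Rik promoter and the exon and intergenic peaks behind it among them, also lie in repeated sequence was not checked. The Dux promoter had 9.98 and 12.1 CPM in LL and 42.1 and 37.9 CPM in PP (log2 -1.84 ± 0.272 SE).

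Siglech, a sialic acid-binding receptor used as a microglia marker, lost accessibility at distal sites, while its promoter did not pass the test. The peak 22969 bases upstream, chr7:55744255-55745209, had 13.0 and 19.3 CPM in LL and 46.3 and 47.9 CPM in PP (log2 -1.51 ± 0.246 SE, adjusted p = 2.56e-06). A neighbouring peak 30272 bases upstream was also lower (log2 -1.03 ± 0.315 SE, adjusted p = 0.0283). Another distal peak, 2457 bases upstream, was not called (log2 -0.08 ± 0.277 SE, adjusted p = 0.911). The promoter had 34.9 and 40.2 CPM in LL and 26.3 and 37.9 CPM in PP (log2 0.23 ± 0.232 SE, adjusted p = 0.628), where the groups overlapped. The locus sum fell by 0.48 on the log2 scale (± 0.141 SE, adjusted p = 0.02), a direction that turns to 0.31 when only peaks within 1 kb are summed and to 0.16 within 10 kb. Mertk, a receptor for apoptotic cells, had 1 lower promoter peak, with 78.9 and 75.6 CPM in LL and 123 and 122 CPM in PP (log2 -0.67 ± 0.148 SE, adjusted p = 0.00113), and a locus sum that missed the threshold (log2 -0.30 ± 0.104 SE, adjusted p = 0.057).

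Peaks were summed over the 50 kb around each start site to give a value per gene, and 776 loci were higher (5.81%) and 386 lower (2.89%) in LL than in PP out of 13365 autosomal loci, with a median log2 fold change of -0.01. Of the 30 inflammatory cytokine and NF-kB target loci tested, 6 were higher and 1 lower, with a median of 0.28. The 6 were Map3k8, Bcl3, Il1a, Ccl12, Birc3 and Nfkbiz. Bcl3 had 319 and 316 CPM in LL and 143 and 165 CPM in PP (log2 1.04 ± 0.111 SE, adjusted p = 7.88e-11), and the cytokine gene Il1a had 186 and 165 CPM in LL and 122 and 119 CPM in PP (log2 0.54 ± 0.125 SE, adjusted p = 0.00212). Nfkb2, the p100 precursor of the non-canonical pathway, was the lower member, with 62.8 and 65.2 CPM in LL and 87.3 and 99.8 CPM in PP (log2 -0.55, adjusted p = 0.0144). The Tnf, Il1b, Ccl2, Ccl3 and Ccl4 loci did not pass the test. Tnf had 67.7 and 73.1 CPM in LL and 54.8 and 51.5 CPM in PP (log2 0.41 ± 0.186 SE, adjusted p = 0.163). It was called in LBL against PBP (log2 0.65, adjusted p = 0.0471) and in PL against PP (log2 0.61, adjusted p = 0.0243). The difference of the LL and LBL contrasts at Tnf was -0.24 (adjusted p = 0.866). Il1b had 192 and 177 CPM in LL and 176 and 186 CPM in PP (log2 0.03 ± 0.114 SE), and the log2 fold changes of the chemokines Ccl2, Ccl3 and Ccl4 were 0.16, -0.0079 and 0.27.

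Among 30 negative regulators of LPS signalling, 5 loci were higher (16.7%) and 0 lower, against 5.81% and 2.89% of all loci tested (median 0.16). Socs3, the feedback inhibitor of JAK-STAT signalling, had 468 and 444 CPM in LL and 320 and 277 CPM in PP (log2 0.61 ± 0.096 SE, adjusted p = 4.18e-06). Il4ra, a chain of the IL-4 receptor that is counted here for its dampening role, had 254 and 247 CPM in LL and 148 and 128 CPM in PP (log2 0.86 ± 0.113 SE, adjusted p = 6.4e-08), with a log2 fold change of 1.12 over its distal peaks and 0.28 over its promoter peaks. Sbno2, a corepressor downstream of IL-10, and Trim30a, which limits NF-kB activation, rose by 0.68 and 0.74 on the log2 scale. Nfkbia, the IkB-alpha gene that NF-kB itself induces, had 267 and 279 CPM in LL and 196 and 198 CPM in PP (log2 0.47 ± 0.105 SE, adjusted p = 0.00123). Tnfaip3, Dusp1 and Acod1, other feedback genes of the pathway, were not called (log2 0.22, -0.09 and -0.03).

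Of 29 interferon-stimulated loci, 5 were higher (17.2%) and 0 lower, against 5.81% and 2.89% of all loci tested (median 0.15). Ifi204, a member of the nuclear DNA-sensor family, had 50.4 and 43.6 CPM in LL and 15.7 and 25.2 CPM in PP (log2 1.18 ± 0.257 SE, adjusted p = 9.74e-04). Cxcl11 and Cxcl10, neighbouring chemokine genes, rose by 0.96 and 0.68, and Stat2 and Gbp7 by 0.66 and 0.68. Ifit3 and Irf7, which are standard readouts of an interferon response, were not called, with log2 fold changes of -0.23 and -0.23.

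Of the 23 glucocorticoid target loci tested, 6 were higher (26.1%) and 0 lower, against 5.81% and 2.89% of all loci tested (median 0.12). The 6 were Zbtb16, Hif3a, Bcl6, Klf9, Mt1 and Fkbp5. The Zbtb16 locus summed 2 peaks, 0 of them called alone. The leading Zbtb16 intron peaks lie beyond 50 kb and were not part of that sum. Hif3a, an inhibitory HIF subunit, had 129 and 138 CPM in LL and 91.8 and 72.5 CPM in PP (log2 0.71 ± 0.142 SE, adjusted p = 3.17e-04). Fkbp5, a chaperone of the glucocorticoid receptor, had 504 and 527 CPM in LL and 405 and 354 CPM in PP (log2 0.45 ± 0.096 SE, adjusted p = 8.59e-04); its 4 higher peaks lay in introns, while its 4 promoter peaks were not called. Per1, Sgk1 and Dusp1, immediate glucocorticoid targets, were not called (log2 -0.08, 0.01 and -0.09).

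Among 28 immediate early and AP-1 loci, 4 were higher (14.3%) and 1 lower (3.57%), with a median of 0.14. Over all loci tested, 5.81% were higher and 2.89% lower. Ier3, an early response gene, had 173 and 147 CPM in LL and 73.9 and 98.8 CPM in PP (log2 0.88 ± 0.135 SE, adjusted p = 2.59e-06), and Fosl2, Myc and Batf rose by 0.49, 0.46 and 0.37. Fosb was lower, with 195 and 188 CPM in LL and 252 and 236 CPM in PP (log2 -0.35 ± 0.107 SE, adjusted p = 0.025). In the list of glycolysis, HIF and mTOR genes 5 of 25 were higher and 0 lower (median 0.03): Eif4ebp1, the translation inhibitor that mTOR phosphorylates, had 133 and 134 CPM in LL and 78.3 and 74.6 CPM in PP (log2 0.81 ± 0.141 SE, adjusted p = 2.85e-05), Slc2a1, the glucose transporter GLUT1, had 192 and 193 CPM in LL and 121 and 134 CPM in PP (log2 0.59 ± 0.119 SE), and Pfkfb3, Mtor and Hk2 were the others. Lists with few calls were antigen presentation (Cd86 higher and H2-K1 lower among 20), proliferation (Mcm3 higher among 23) and housekeeping (Polr2a lower among 12).

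**Figure D3:**
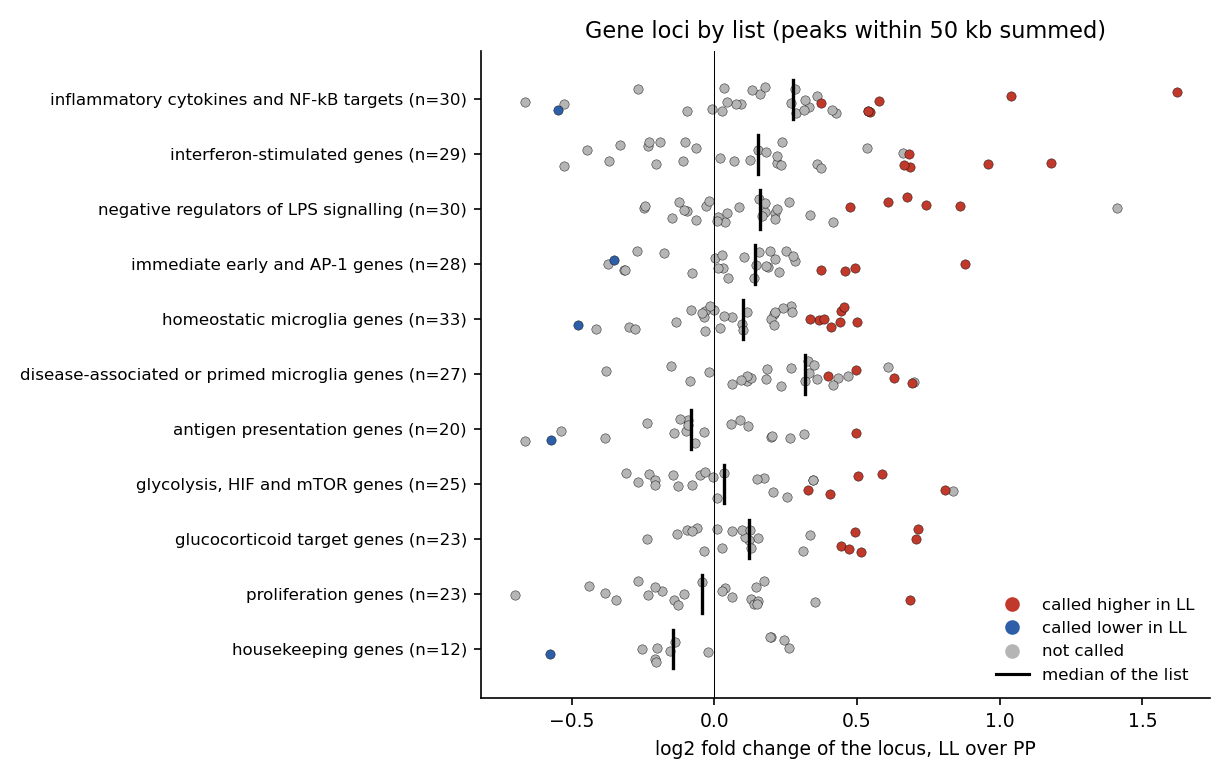
Log2 fold change of LL over PP (horizontal axis) of each tested autosomal locus in 11 gene lists, 1 point per gene, with peaks within 50 kb summed; colours give the call and black bars the list median. List medians run from -0.15 for housekeeping genes to 0.32 for disease-associated genes, and Map3k8 is the point farthest to the right.

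Of 33 homeostatic microglia loci, 8 were higher (24.2%) and 1 lower (3.03%), against 5.81% and 2.89% of all loci tested, with a median of 0.10. P2ry12, the purinergic receptor that marks resting microglia, had 303 and 318 CPM in LL and 243 and 233 CPM in PP (log2 0.39 ± 0.109 SE, adjusted p = 0.0149), but its log2 fold change in LBL against PBP was -0.14 and was not called. Mef2c and Runx1, transcription factors of the lineage, rose by 0.37 and 0.33, and P2ry13, Sall3, Tgfbr2, Trem2 and Selplg made up the 8. Tmem119, a microglia membrane marker, and Sall1, a repressor that keeps microglia identity, were not called (log2 -0.08 and -0.28). These calls rested on small changes: 0 of the list were called higher without PP 3_4, 1 without PP 1_2, and 2 by DESeq2. Among 27 disease-associated or primed loci 4 were higher and 0 lower (median 0.32), led by Cd300lf, an inhibitory lipid receptor, with 173 CPM in each LL library and 109 and 106 CPM in PP (log2 0.69 ± 0.122 SE, adjusted p = 4e-05), and by Lilrb4a, another inhibitory receptor (log2 0.63 ± 0.134 SE).

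The defining microglia markers were open in both groups, with summed locus levels of 1900 and 1960 CPM in LL and 1780 and 1820 CPM in PP over 10 of 12 markers. Of these 2 were higher (P2ry12 and Itgam) and 1 lower (Siglech), and Fcrls had no tested locus. Over all loci tested, 5.81% were higher and 2.89% lower. Of the other cell types, border and bone-marrow-derived macrophage markers summed to 459 and 462 CPM in LL and 394 and 310 CPM in PP, with 2 of 10 higher: F13a1, a coagulation factor subunit, at 55.3 and 54.6 CPM in LL and 19.0 and 18.9 CPM in PP (log2 1.53 ± 0.245 SE, adjusted p = 6.07e-06), and Stab1, a scavenger receptor, at log2 0.44. Mrc1, Cd163, Cbr2 and Ms4a7 of the same list were not called, and Lyve1 and Pf4 had no tested locus. All 10 tested loci of this list were above 0, with a median log2 fold change of 0.21. In LBL against PBP 3 of them were called higher, with a median of 0.31. Monocyte markers summed to 462 and 460 CPM in LL and 435 and 430 CPM in PP with 0 of 6 called, and Ly6c2 had no tested locus. Neutrophil markers, of which 6 of 13 were tested, summed to 216 and 215 CPM in LL and 218 and 199 CPM in PP. The 1 higher member was Trem1, an amplifier of LPS signals, at 24.9 and 22.0 CPM in LL against 12.3 and 3.15 CPM in PP. Lymphocyte markers (58.2 to 79.8 CPM over all 4 libraries), oligodendrocyte markers (471 to 500 CPM) and astrocyte markers (350 to 442 CPM) had 0 called members. Neuron markers, of which 4 of 14 were tested, summed to 85.1 and 91.7 CPM in LL and 130 and 122 CPM in PP. The 1 lower member was Gad2, at 5.42 and 5.29 CPM in LL against 13.4 and 16.8 CPM in PP. Endothelial and mural markers, of which 9 of 14 were tested, include Slc2a1. They summed to 733 and 759 CPM in LL and 595 and 666 CPM in PP, with that 1 member higher. The part of other cell types in the called peaks was not tested.

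The same contrast in BLZ945-treated mice, LBL against PBP, shares no library with LL against PP. It called 1465 higher (3.98%) and 323 lower peaks (0.878%). LBL cells were sorted on the XDP and PBP cells on the Astrios, the same split as LL and PP, and on different days. A shared effect of LPS and a shared effect of the sorter therefore cannot be told apart in what the contrasts have in common. Of the 1524 peaks higher in LL, 1403 (92.1%) were also above 0 in LBL against PBP, where 49.5% of all tested peaks were, and 669 were called higher in both, which is 43.9% of the LL list and 45.7% of the LBL list. Of the 727 peaks lower in LL, 584 (80.3%) were below 0 in LBL against PBP, and 42 were called lower in both, which is 5.78% of the LL list and 13% of the LBL list. Median log2 fold changes of the higher peaks were 1.04 in LL against PP and 0.66 in LBL against PBP, and those of the lower peaks -0.95 and -0.25. The peaks were chosen on LL against PP, so the first value of each pair is a description and only the second is independent of the choice. In the gene lists, loci called higher in LBL against PBP numbered 5 of 30 among cytokines and NF-kB targets, 5 of 30 negative regulators, 1 of 29 interferon-stimulated and 8 of 23 glucocorticoid loci. They were 2 of 28 immediate early, 4 of 25 glycolysis, HIF and mTOR, 3 of 33 homeostatic and 5 of 27 disease-associated loci, against 3.81% of all loci. Lower there were 1 cytokine, 1 immediate early and 2 homeostatic loci, against 0.591% of all loci. Whether these lists differed between the contrasts was not tested. Over all 36769 peaks the fold changes of the contrasts had a Pearson r of 0.46 and a Spearman rho of 0.41, across peaks that share libraries and are not independent replicates.

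Map3k8 was the clearest gain in both arms, with a promoter mean of 122 CPM in LBL and 23.7 CPM in PBP (log2 2.34, adjusted p = 8.14e-24). Zbtb16 gained too, at 24.2 CPM in LBL and 3.57 CPM in PBP for the peak chr9:48744940-48745377 (log2 2.66, adjusted p = 8.31e-08). The Siglech peak 22969 bases upstream was lower in both, with 16.6 CPM in LBL and 42.4 CPM in PBP (log2 -1.32, adjusted p = 3.39e-05). The Siglech peak 30272 bases upstream was not called in LBL against PBP, at 8.1 and 9.1 CPM (log2 -0.19, adjusted p = 0.869). The Abcg2 intron peak had 6.3 CPM in LBL and 5.46 CPM in PBP (log2 0.21, adjusted p = 0.877). Of the gains outside and inside promoters, 94.7% of the 1294 higher peaks outside promoters were above 0 in LBL against PBP and 46.7% were called, while 77.4% of the 230 higher promoters were above 0 and 28.3% were called. No peak was called in opposite directions in the contrasts. The difference between the contrasts was called at 3 peaks (0.00816%), all with the more negative change in LL against PP, and at 2771 peaks at an unadjusted p under 0.05; DESeq2 called 0. At 1 of the 3, an exon peak at chr15:5539389-5539930 in 5430437J10Rik, LL against PP was itself not called.

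**Figure D4:**
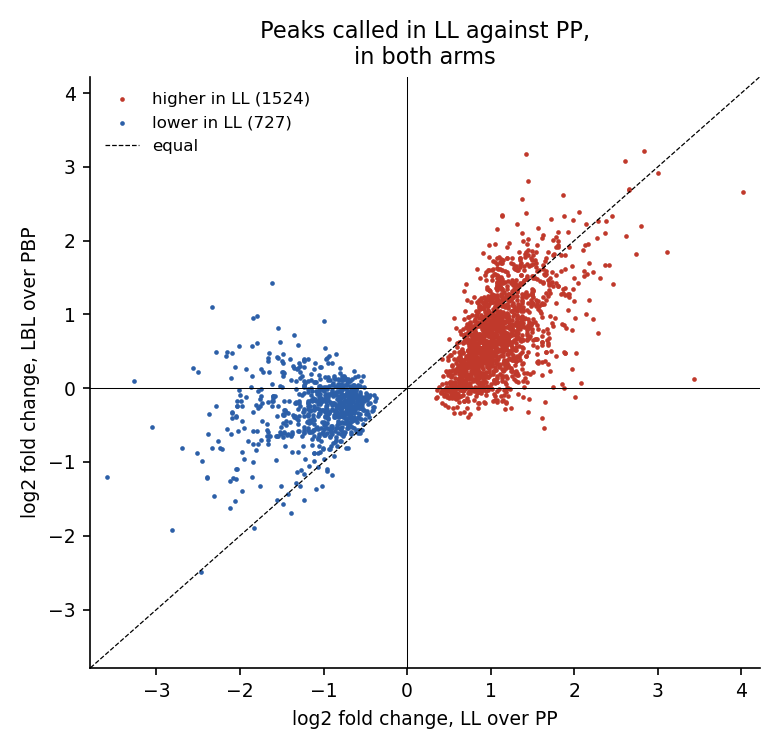
Log2 fold change of LBL over PBP (vertical axis) against that of LL over PP (horizontal axis) for the 2251 peaks called in LL against PP, red for higher and blue for lower; the dashed line marks equality. Most red points lie above 0 (92.1%) with a median of 0.66 on the vertical axis, and most blue points lie below 0 (80.3%) but close to it, with a median of -0.25.

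Where the lower peaks stand depends on which resting group is used. Over the 727 lower peaks the median level per library was 18 and 17.7 CPM in LL, 22.5 and 17.0 CPM in PL, 33.7 and 33.9 CPM in PP, 18.2 and 19.3 CPM in LBL and 24.4 and 22.6 CPM in PBP. PP was thus the high group, and PBP, resting cells that had repopulated the brain, lay nearer to the LPS groups. PP exceeded PBP at 696 of the 727 lower peaks (95.7%), against 50.3% of all tested peaks, with a median log2 fold change of PBP over PP of -0.51. PP took part in the choice of these peaks and PBP did not, which favours that order, and 44 peaks were called in PBP against PP over all tested peaks (0.12%). The LL libraries lay below all 4 resting libraries at 516 of the lower peaks (71%) and above all 4 at 1365 of the higher peaks (89.6%). Every called peak already had LL on one side of both PP libraries, so only the PBP libraries could lower these shares. The same share over all tested peaks was not taken. Over the 1524 higher peaks the median level was 37.4 and 38.6 CPM in LL, 33.8 and 39.4 CPM in PL, 17.9 and 18 CPM in PP, 36.4 and 36.0 CPM in LBL and 20.7 and 21.9 CPM in PBP. PP exceeded PBP at 21.9% of the higher peaks, with a median log2 fold change of PBP over PP of 0.30, so PBP lay between PP and the LPS groups there too. The 4931408C20Rik promoter shows the pattern of the lower peaks, with a mean of 46.9 CPM in LL, 73.8 CPM in PBP and 148 CPM in PP. Against the mean of PP and PBP, 2547 peaks were higher in LL and 894 lower. These held 1365 (89.6%) of the higher and 460 (63.3%) of the lower peaks called against PP. That contrast reuses the LL and PP libraries that chose the peaks, so a large overlap is built in.

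**Figure D5:**
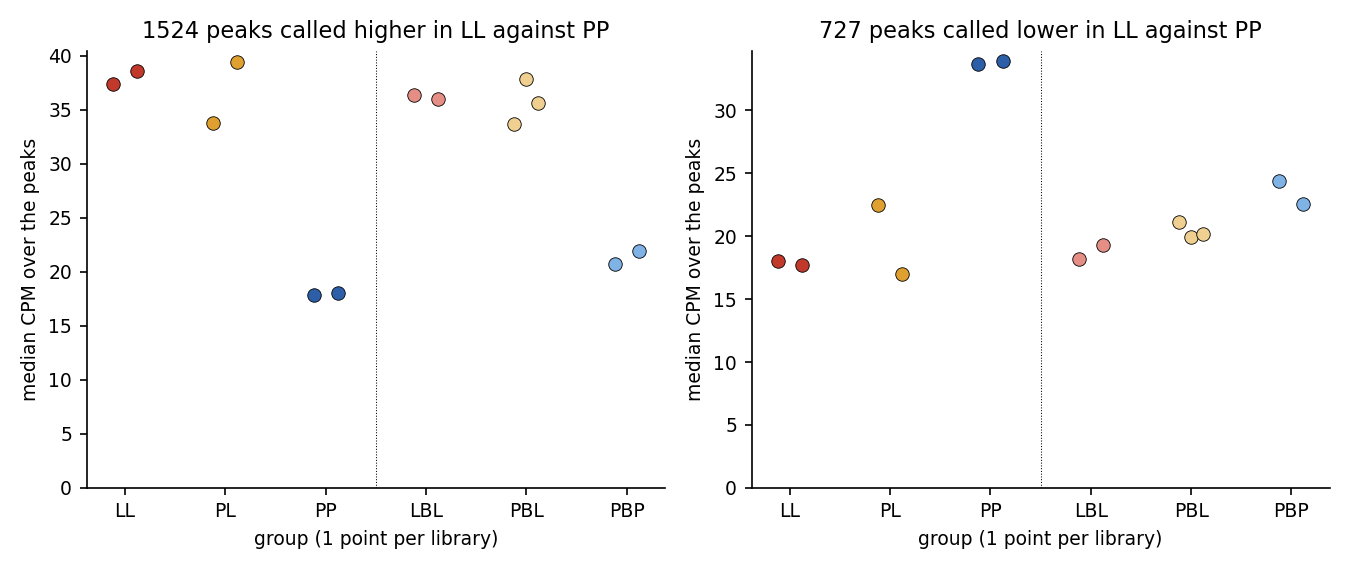
Median CPM per library (vertical axis, 1 point per library, by group) over the 1524 peaks called higher (left) and the 727 called lower (right) in LL against PP. PP points lie near 18 on the left, with PBP above them, and near 34 on the right, where PBP lies at 22.6 and 24.4.

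PL mice, which met LPS for the first time 3 hours before collection, give the level after a first dose; LL against PP and PL against PP share the PP libraries, so values are set side by side only. The Map3k8 promoter mean was 112 CPM in LL and 113 CPM in PL (log2 fold change of LL over PL -0.02, adjusted p = 0.988). The test of LL against PL passed at 24 of 36769 peaks (0.0653%), with 5 of them higher in LL and 19 lower. The intronic Zbtb16 peak chr9:48744940-48745377 was among the higher, with 31.9 and 36.2 CPM in LL, 14.8 and 16.0 CPM in PL and 2.1 and 2.00 CPM in PP (LL over PL log2 1.15 ± 0.234 SE, adjusted p = 0.0147). A peak 23944 bases upstream of Il12a was another, with 23 and 16.9 CPM in LL, 8.89 and 6.92 CPM in PL and 10.5 and 7.98 CPM in PP (LL over PL log2 1.31 ± 0.300 SE, adjusted p = 0.0369). In both the LL libraries lay above all PL and PP libraries, and in the Il12a peak PL and PP overlapped.

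Lower in LL than in PL were promoters of the lysosomal genes Tmbim1 and Slc11a1 and of Il4i1, an amino acid oxidase of activated myeloid cells. Tmbim1 had 18 and 16.9 CPM in LL, 39.7 and 45.3 CPM in PL and 31.6 and 24.0 CPM in PP (LL over PL log2 -1.29 ± 0.215 SE, adjusted p = 5.31e-04), and Slc11a1, a metal transporter of the phagosome, had 11.0 and 10.9 CPM in LL, 23.7 and 26.6 CPM in PL and 12.6 and 16.0 CPM in PP. A peak 10561 bases from the start site of Mir146 was low in LL alone of the 3 vehicle groups, with 29.9 and 32.2 CPM in LL, 49.8 and 59.6 CPM in PL and 54.7 and 65.9 CPM in PP (LL over PL log2 -0.82 ± 0.179 SE, adjusted p = 0.0269; LL over PP log2 -0.95 ± 0.201 SE, adjusted p = 5.21e-04). The means of this peak were 39.9 CPM in LBL and 87.7 CPM in PBP. The gene encodes miR-146a, which in macrophages targets the Toll-like receptor adaptors Irak1 and Traf6; its mature form is shown with the seed, bases 2 to 8, in capitals (RefSeq, chr11:43374435-43374456, - strand).
miR-146a-5p: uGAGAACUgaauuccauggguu

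The LL against PL count rested on the PL pair, which was the widest of the series (chi-square per degree of freedom 1.84): leaving out PL 1_2 gave 299 calls, PL 3_4 gave 6, LL 1_2 gave 5 and LL 3_4 gave 8, and DESeq2 called 0. LL and PL also differ in sorter, and that cannot be told apart from the first injection.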

How the data were processed

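The deposited table gives an estimated count per peak and library for a common peak set, in steps of 0.5 and without normalization by the authors, and the sources used here do not name the counting tool. Peak positions (mm10), classes, and the distance to the nearest start site in bp are deposited with it, per the file headers; the distance and peak width were used as given. The submitters' processing notes name the builds GRCm38 and mm10 and, in no stated order, ChIPseeker 1.38, MACS2 2.1.1, Bowtie2 2.2.6, HOMER 4.9.1, cutadapt 1.9.1, deepTools 3.3.0, Picard 1.126, bedtools 2.26 and SAMtools 1.7; a shift of read ends for the transposase is not given there.

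Counts were rounded and tested with edgeR 4.0.16 under R 4.3.3. Peaks kept by filterByExpr at a minimum count of 10 numbered 37516, and libraries were scaled by TMM. All 13 libraries entered a single quasi-likelihood fit with a mean for each of the 6 groups, so that LL and PP share the spread estimate of the other 9. F tests, with both directions considered, gave p-values, to which the Benjamini-Hochberg adjustment was applied over every tested peak, sex chromosomes included. A call needed an adjusted p under 0.05 and no particular fold, and calls were counted on autosomes. Standard errors were taken as the log2 fold change over the square root of F, without its sign. Counts of peaks within 50 kb of a gene's start site were summed for loci and tested alike. Nothing says whether pools came from separate cohorts, so p-values measure only the spread between these pools. Scripts were tested on simulated data.

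The comparison, the gene lists and the rule for named genes were chosen with earlier results of these data known. Named in each direction are the 15 leading called peaks by p (1 per gene, libraries not overlapping), the 2 leading called loci of each list and the 5 genes with the most called peaks. Added to these are fixed genes (Acod1, Apoe, Ccl2, Ccl3, Ccl4, Fkbp5, Gpr34, Ifit3, Il1b, Irf7, Map3k8, Mertk, Nfkbia, P2ry12, Sall1, Siglech, Socs3, Tmem119, Tnf, Tsc22d3 and Zbtb16), called differences from LBL against PBP, and the 5 leading gains from a PP mean under 5 CPM. Gpr34 and Tsc22d3 lie on the X chromosome and Apoe had no tested locus. Other list members, the printed promoters, further peaks of named genes, and the peaks of LL against PL were chosen after their values were seen. Both leading Zbtb16 peaks are farther than 50 kb from a start site and carry the name of their intron's gene. Alternatives used DESeq2 1.42.0 and limma 3.58.1. A check of base content and a letter search in distal peaks were not made.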

Additional observations from a re-analysis of the deposited data

Results flagged for a closer look

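At 3 autosomal peaks the change in LL against PP differed from that in LBL against PBP (edgeR's quasi-likelihood F test of the difference, adjusted over all tested peaks). The exon peak at chr6:3182420-3183998 was lower in LL against PP (24.0 and 23.3 CPM in LL, 82.0 and 83.8 CPM in PP) and had means of 31.9 CPM in LBL and 37.6 CPM in PBP; the difference of the log2 fold changes was -1.59 (adjusted p = 0.00661). The intergenic peak at chr2:3964459-3964651 was lower in LL against PP (12.0 and 8.85 CPM in LL, 43.1 and 38.9 CPM in PP) and had means of 16.9 CPM in LBL and 19.2 CPM in PBP, a difference of -1.82 (adjusted p = 0.0402). The exon peak in 5430437J10Rik had 7.49 and 9.66 CPM in LL and 10.5 and 14.0 CPM in PP, with means of 17.0 CPM in LBL and 3.48 CPM in PBP, a difference of -2.79 (adjusted p = 0.0253). At the first pair of peaks PP was the group that stood apart, and at the third the PBP mean was the lowest of the 4. With the PP and LBL pairs each entered as 1 library, 0 peaks were called for this difference.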

How the results depend on the processing

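All 35 named peaks kept their side of the threshold under every setting run for them, and all but the uncalled 5430437J10Rik peak their direction (-0.50, and 0.423 against the mean of PP and PBP), with DESeq2 giving a value for 30. The called ones among them were chosen for the smallest p in the main fit of these same libraries. Keeping the call was therefore largely built in and says little about the other called peaks. The counts moved. The 1524 higher peaks became 404 by DESeq2, 891 with libraries thinned to equal totals, 830 at a minimum fold of 2, 730 at an adjusted p under 0.01, 2547 against the mean of PP and PBP, 214 with the PP and LBL pairs counted as 1 library each (both of these chosen after seeing the data), and 441 to 884 with 1 library left out. The 727 lower peaks became 68, 1153 by limma with cyclic loess, 1315 when the LL and PP libraries were fitted alone, 380 thinned, 334 at 2-fold, 224 at 0.01, 67 with pairs counted as 1, and 176 to 405 with 1 library left out. The 776 higher loci became 360 by DESeq2, 63 at 2-fold, 423 at 0.01, 258 with peaks within 1 kb, 504 within 10 kb, 209 with pairs as 1, and 300 to 502 with 1 library left out. The 386 lower loci became 603 when scaled by totals only, 52 by DESeq2, 727 with the groups alone, 222 thinned, 70 at 2-fold, 95 at 0.01, 184 within 1 kb, 20 with pairs as 1, and 76 to 158 with 1 library left out. For LBL against PBP, the 1465 higher peaks became 466 by DESeq2, 710 thinned, 817 at 0.01, 588 with pairs as 1 and 490 to 851 with 1 library left out, and the 323 lower peaks 27, 600 with the groups alone, 569 without the PL group, 136 thinned, 134 at 2-fold, 98 at 0.01, 42 with pairs as 1 and 111 to 136. The 3 peaks of the difference became 5 with RLE scaling, with totals only or without the filter, 0 by DESeq2, 23 with the groups alone, 19 without PL, 1 thinned, at 0.01 or fitted on autosomes alone, 0 with pairs as 1 and 0 to 4 with 1 library left out. The 24 peaks of LL against PL became 0 by DESeq2 and thinned, 4 by loess, 3 with the groups alone, 5 at 0.01, 15 with pairs as 1 and 5 to 299 with 1 library left out.

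With the pool number as a replicate block, 1686 peaks were higher and 841 lower, 837 loci higher and 452 lower, 1545 higher and 411 lower in LBL against PBP, 15 for the difference and 48 for LL against PL; the numbers share nothing else that is known, and the correlation of same-numbered LL and PP deviations was 0.0094. The Siglech locus turned to 0.31 within 1 kb and 0.16 within 10 kb, and Stab1 to -0.0456 within 1 kb, by construction from fewer peaks. Of the 32 named loci called, 12 kept the call with pairs as 1, 16 without PP 3_4, 20 without PP 1_2, 23 without LL 3_4 and 24 without LL 1_2. Other causes of these shifts were not tested. Windows at peak centres were not run. Precision at low levels is limited by the depth of PP (927840 and 990266 counts): of the 9193 peaks with the lowest levels 0.74% were called higher and 1.24% lower, against 6.08% and 3.01% of the 9192 with the highest.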
